A study of Mus musculus with 2 samples.

Results

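The angiotensin and endothelin system genes examined here were the precursor Agt, the converting enzyme Ace and the receptors Agtr1a and Agtr2 of the angiotensin arm, and the precursor Edn1, the converting enzyme Ece1 and the receptors Ednra and Ednrb of the endothelin arm. A peak belonged to a gene when the annotation in the deposited table gave that gene's symbol to it. By this rule 7 of the 8 genes had at least 1 peak, and together they held 22 of the 63316 peaks in the table. Agtr2 had none. Of all peaks, 43864 carried the symbol of any of 16934 genes.

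Chromatin accessibility was measured by ATAC-seq, in which a transposase inserts sequencing adapters where DNA is open, so that reads pile up over accessible sites. The cells were primary murine cardiac fibroblasts. They received scrambled siRNA (SCR) or an siRNA targeting Piezo2 (siPiezo2), a mechanosensitive ion channel, and cells of both groups were then exposed to TGF-β at 5 ng/ml for 24 h. There was 1 library per condition and no library without TGF-β, so no difference below has a replicate check and no p-value is given. The mutant mouse lines of the study were on a C57BL/6 J background, but the strain of the mice behind these cells, their age and number, and the passage are not given in the sources used here. The general description of the series names a Cre-mediated deletion of Tet3 in place of the siRNA, and the study's ATAC-seq methods start from tissue that was minced and homogenized, with a kit that differs from the labelled kit. The sample labels were followed, and these conflicts were not settled. An siRNA acts on a transcript, so these libraries hold no direct check of the knockdown.

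Angiotensinogen, the product of Agt, is cut by renin and then by angiotensin converting enzyme to angiotensin II, which acts on fibroblasts mainly through the type 1 receptor encoded by Agtr1a. Endothelin-1 is released from a longer peptide by endothelin converting enzyme and binds the receptors encoded by Ednra and Ednrb, which couple to G proteins and raise cytosolic calcium. Both peptides constrict vessels and are known to promote collagen synthesis by cardiac fibroblasts, and TGF-β is a known inducer of Edn1 transcription in several cell types.

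Values are the authors' normalized read densities, and each ratio is log2 of siPiezo2 over SCR after adding 1 to both densities. Whole reads per 2000-bp window were recovered from the deposited values and give the 95% intervals (exact binomial, Clopper-Pearson), which cover counting error only. Among 19843 peaks called in both libraries with as many reads as the members' peaks, the ratios varied with 2.12 times the variance of counting error, so that an interval allowing for this is 1.46 times as wide. Summed over all peaks there were 4615335 such reads in SCR and 2754046 in siPiezo2. The table follows the mouse assembly GRCm39, and peak positions are given in it.

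Defining markers of cardiac fibroblasts were open in both libraries. Of 12 such markers 10 had a peak, each of them with 1 near a transcription start site (TSS, within 1 kb), and Lum and Thy1 had none. Together they had a density of 1387 in SCR and 1349 in siPiezo2. Of 10 cardiomyocyte markers 3 had a peak, with a sum of 146 and 152, and Myh6, Tnni3, Nppa, Myl2, Myl7, Ttn and Pln had none. Of 8 immune markers 4 had a peak, with a sum of 200 in SCR and 182 in siPiezo2.

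Across the 22 peaks the density ranged from 14.5 to 66.2 in SCR and from 9.67 to 77.8 in siPiezo2. The weakest peak in the siPiezo2 library lay in an intron of Ednrb, and the strongest in both libraries lay in an intron of Ece1. The median log2 ratio was -0.26 (quartiles -0.36 and 0.01), beside -0.13 (quartiles -0.41 and 0.12) over all peaks. In 15 of 22 peaks (68.2%) siPiezo2 was the lower library, against 63.7% of all peaks. Peak calling in the table split the members much as it did all peaks, with 15 called in SCR only (68.2% against 64.0%), 6 in both and 1 in siPiezo2 only.

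Past 1.5-fold, that is below 0.66 or above 1.5 of SCR, 3 member peaks were lower and 1 was higher. Over all peaks 13.5% were lower and 3.21% higher by the same threshold, so neither count stands apart from the background at this number of peaks. The lower peaks belonged to Edn1, Agt and Ece1, and each lay within 1 kb of a TSS, where 3 of 7 member peaks were lower and none was higher. Among the table's 14801 peaks at this distance, 6.43% were lower and 2.08% higher. Each of the 3 lower peaks was called in SCR only, as were 6 of the 7 near a TSS (85.7%, against 42.4% of all near a TSS), and a peak tends to be called in the library where it is higher. Among SCR-only peaks 18.3% were lower, and 12.4% among those near a TSS, where 3 of 6 member peaks were. The higher peak belonged to Ace, and 49.8% of the peaks called in siPiezo2 only were higher. By counting error, the interval lay below 0 for 3 member peaks and above 0 for 2, where the shares over all peaks were 13.2% and 4.22%. When densities were rescaled by the median of ratios, a step that raised the typical gene from -0.09 to 0.04, the split was 2 lower (Edn1 and Ece1) and 2 higher (Ace and another Ece1 peak), and with each library at the same total density 2 were lower and 1 higher. With the wider interval, that of only the Edn1 peak stayed below 0, and no interval stayed above 0. In bulk cells, fewer cells with an open site and less opening per cell cannot be told apart.

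**Figure D1:**
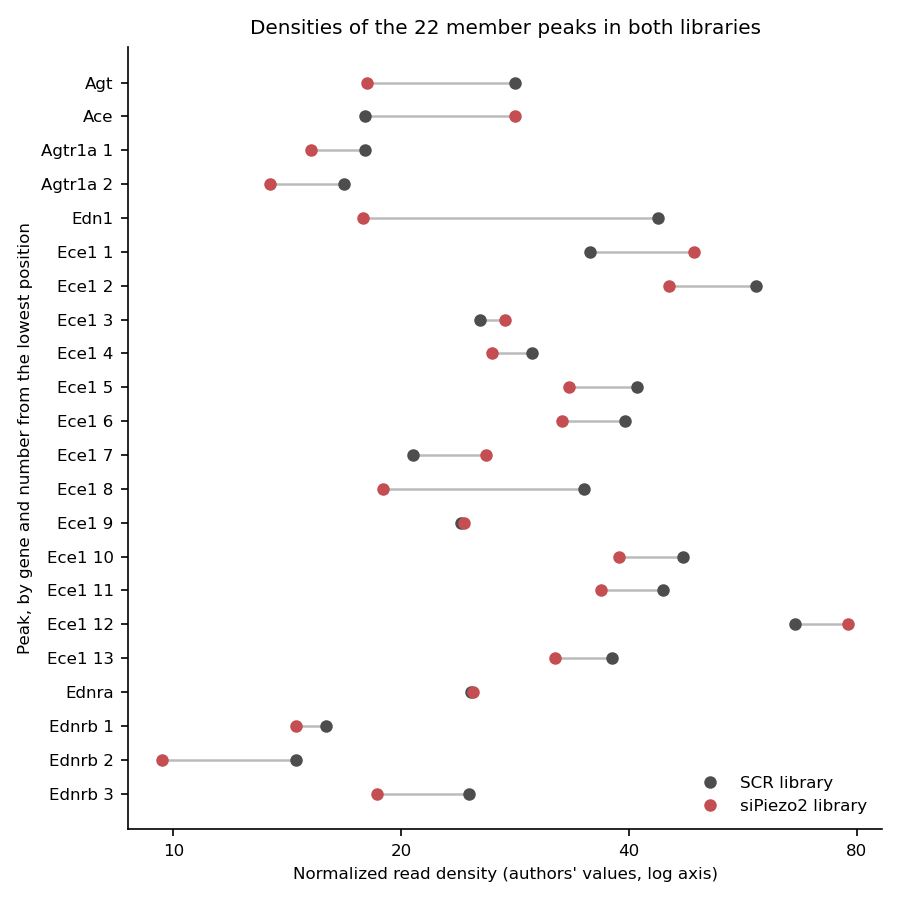
Normalized read density of each of the 22 peaks in the SCR and siPiezo2 libraries on a log axis, 1 point per library and peak, with peaks of 1 gene numbered from the lowest position. The Edn1 peak had the widest gap (43.7 and 17.8), while the points of Ednra nearly coincided (24.7 and 24.9).

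By densities summed over a gene's peaks, Edn1 and Agt were lower past 1.5-fold and Ace was higher, while Agtr1a, Ece1, Ednra and Ednrb lay between the thresholds. Of all 16934 genes with a peak, 6.21% were lower and 1.54% higher.

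Edn1 encodes the precursor of endothelin-1. Its only peak (ENSMUSG00000021367, chr13:42454694-42455135) covered the promoter and the TSS of the plus-strand gene, with its centre at -38 bp from the start. Density was 43.7 in SCR and 17.8 in siPiezo2, from 106 and 28 reads. The log2 ratio was -1.25 (-1.85 to -0.68, and -2.13 to -0.38 with the wider interval). The promoter of Edn1 was therefore the least accessible of the members relative to SCR, and 0.843% of all peaks and 0.304% of peaks within 1 kb of a TSS had a lower ratio. The peak was called in SCR only, where the median was -0.23. Within that class 1.25% of peaks, and 0.668% of those near a TSS, were lower than it. By summed density, 0.195% of genes had a lower ratio than Edn1. The ratio was between -1.29 and -1.12 for the other pseudocount and scalings tried.

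The upstream part of the promoter is shown because the peak covers it whole. It is the RefSeq sequence of GRCm38.p6, chr13:42301226-42301475, plus strand, 5′ to 3′, and it ends at the base before the start. Capitals mark matches to CAGAC or its reverse complement (a SMAD element) and to the reverse complement of GGAATG (a TEAD element).
Edn1 promoter: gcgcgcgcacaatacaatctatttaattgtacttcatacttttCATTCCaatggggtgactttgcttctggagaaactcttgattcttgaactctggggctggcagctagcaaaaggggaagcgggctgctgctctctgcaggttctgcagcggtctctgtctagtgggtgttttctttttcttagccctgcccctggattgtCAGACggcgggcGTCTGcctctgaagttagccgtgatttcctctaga
Matches were searched on both strands. The TEAD element lay at -207 to -202 from the start, and the SMAD elements at -47 to -43 and at -35 to -31, on opposite strands. In the same 250 bases of 32851 promoters, CAGAC was found in 42.2% and GGAATG in 12.6%. The AP-1 element TGANTCA, found in 6.75% of promoters, was not in this window. The same was true of the GATA element AGATAA, with a share of 9.99%. The TATA box, searched as TATAAA with a share of 12.4%, and the CArG box, with a share of 1.47%, were not found either. These are letter matches and not measured binding.

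Endothelial cells are a well-known source of endothelin-1. Of 10 endothelial markers 8 had a peak, with a sum of 674 in SCR and 679 in siPiezo2. Only 2 of the 10, Tek and Esam, had a peak within 1 kb of a TSS, and Pecam1, Cdh5, Kdr, Tie1, Emcn, Egfl7, Vwf and Erg had none there. The part of endothelial cells in the Edn1 result was not tested.

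Upstream of Edn1, 4 intergenic peaks whose nearest TSS was that of Edn1 carried no symbol and so fell outside the rule. The peak at -42846 bp from the start had a density of 26.2 in SCR and 27.5 in siPiezo2, with a log2 ratio of 0.07 (-0.49 to 0.61). At -56627 bp the densities were 22.1 and 22.2. Neither differed between the libraries beyond counting error. The peak at -55525 bp was lower, with 15.8 and 9.11 (log2 ratio -0.73, -1.55 to 0.07), and its counting window overlaps that of the peak at -56627 bp. The peak at -35374 bp had 14.4 and 11.5 (-0.31, -1.09 to 0.46). When these 4 peaks were added to the promoter, the log2 ratio of Edn1 was -0.47 in place of -1.25.

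Ece1 encodes the membrane protease that releases endothelin-1 from its precursor. With 13 peaks (ENSMUSG00000057530, chromosome 4, plus strand) it held most of the members' accessible sites. The peaks summed to 505 in SCR and 468 in siPiezo2, from 1262 and 728 reads, and the log2 ratio was -0.11 (-0.24 to 0.02), beside a median of -0.09 over all genes. With median-of-ratios scaling the ratio of Ece1 was 0.03. Of its peaks 8 were below 0 and 5 above. The lowest and the highest ratio of the gene were those of its promoter peaks.

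At the upstream promoter (chr4:137589406-137589663, centre at -14 bp from the first start) density was 35.5 in SCR and 48.8 in siPiezo2, from 89 and 76 reads. Its log2 ratio was 0.45 (0.01 to 0.89), short of 1.5-fold. It was 0.54 at the same total density and 0.50 with recovered reads, also short of it, and 0.59 with median-of-ratios scaling, past it. At the internal promoter (chr4:137640627-137640994, 5′ UTR, 28 bp inside the start of shorter transcripts) density was 34.9 in SCR and 18.9 in siPiezo2, from 84 and 30 reads. Its log2 ratio was -0.86 (-1.45 to -0.28), and 1.93% of peaks within 1 kb of a TSS had a lower one. This peak was called in SCR only and the upstream one in both libraries. Among SCR-only peaks near a TSS, 3.98% had a lower ratio than the internal promoter, and among those called in both, 93.1% had a lower ratio than the upstream promoter. Only the internal promoter passed 1.5-fold. The intervals of the pair from counting error did not overlap, while the wider intervals (-0.19 to 1.09 and -1.73 to 0.02) did, and each of these included 0. The starts of the transcripts served by the internal promoter lie 51234 and 51445 bp downstream of the first start in the GENCODE M21 annotation.

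The sequences before these starts are shown because their peaks had the lowest and the highest ratio of the gene. Both are RefSeq sequences of GRCm38.p6, plus strand, 5′ to 3′: chr4:137861987-137862236 for the upstream promoter, positions -250 to -1, and chr4:137913308-137913470 for the internal promoter, positions -250 to -88 from the RefSeq start. The latter stops there because a transcript of the table starts 87 bp before that of RefSeq. Capitals mark the reverse complement of CAGAC.
Ece1 upstream promoter: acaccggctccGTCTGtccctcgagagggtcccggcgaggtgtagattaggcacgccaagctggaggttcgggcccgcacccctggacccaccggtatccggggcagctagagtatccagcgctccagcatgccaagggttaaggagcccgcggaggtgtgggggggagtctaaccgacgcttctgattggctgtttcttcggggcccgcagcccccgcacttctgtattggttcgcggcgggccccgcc
Ece1 internal promoter: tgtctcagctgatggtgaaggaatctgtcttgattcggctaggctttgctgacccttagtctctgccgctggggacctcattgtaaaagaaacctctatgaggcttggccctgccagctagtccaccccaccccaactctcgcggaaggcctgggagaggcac
The upstream promoter had 66.8% G and C and 22 CpG in 250 bases, and its peak reached from -142 to 115. The internal promoter had 56.4% and 4 CpG in 163 bases, and its peak reached from -242 to 125. The SMAD letters lay at -239 to -235 of the upstream promoter, outside its peak, and no other element searched was found in either window.

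The strongest peak of Ece1 (chr4:137682296-137682767) lay in intron 15 of 19. Density was 66.2 in SCR and 77.8 in siPiezo2, from 175 and 116 reads, with a log2 ratio of 0.23 (-0.11 to 0.57). Its mean density exceeded that of 97.4% of all peaks. The peak in the 3′ UTR had 38 and 31.9 (-0.25, -0.75 to 0.24). The 10 intron peaks, the strongest included, had log2 ratios from -0.37 to 0.31 with a median of -0.22, near the median of -0.17 over all 26569 intron peaks. None was past 1.5-fold and no interval excluded 0. The lowest of them lay 2642 bp from a TSS in intron 1, with densities of 58.8 and 45.2. A pair in the same intron, with summits 564 bp apart, shared part of its reads and moved alike (-0.29 and -0.27). Outside the rule, 4 intergenic peaks upstream, from -26105 to -8253 bp of the first start, had log2 ratios from -0.12 to 0.24.

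**Figure D2:**
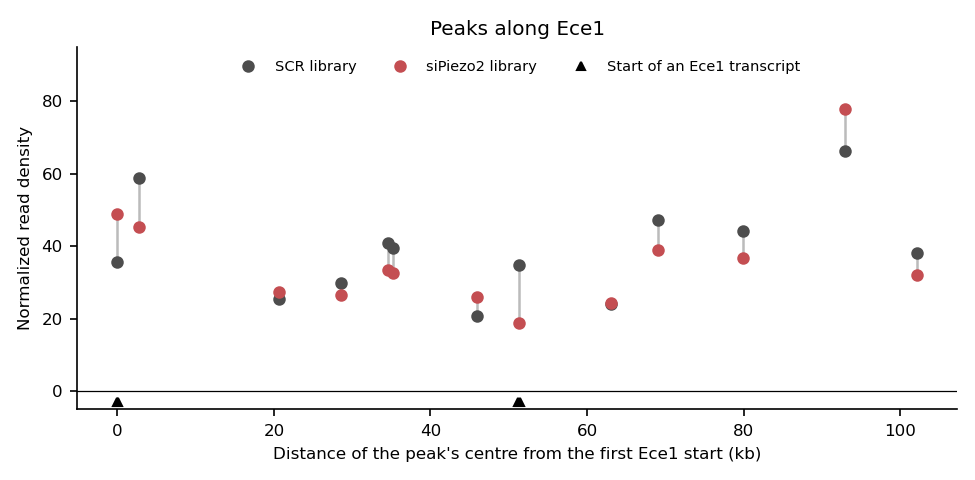
Normalized read density of the 13 Ece1 peaks by the distance of the peak's centre from the first start in kb, with SCR and siPiezo2 points joined by a line and triangles at transcript starts. At the first start siPiezo2 was the higher library (48.8 against 35.5), and at the internal start SCR was (34.9 against 18.9).

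Ednra encodes the ETA receptor, the main endothelin receptor of smooth muscle and also present on fibroblasts. Its only peak (ENSMUSG00000031616, chr8:78450813-78451190, 5′ UTR, centre 64 bp inside the start of the minus-strand gene) had 24.7 in SCR and 24.9 in siPiezo2, from 59 and 40 reads. The log2 ratio was 0.01, and the interval from -0.57 to 0.58 is all that these reads allow. No difference was detectable at this depth. The promoter is shown beside that of the ligand, as RefSeq gives it in GRCm38.p6, chr8:77724465-77724702, minus strand, 5′ to 3′, positions -250 to -13. Capitals mark matches to the reverse complement of CAGAC.
Ednra promoter: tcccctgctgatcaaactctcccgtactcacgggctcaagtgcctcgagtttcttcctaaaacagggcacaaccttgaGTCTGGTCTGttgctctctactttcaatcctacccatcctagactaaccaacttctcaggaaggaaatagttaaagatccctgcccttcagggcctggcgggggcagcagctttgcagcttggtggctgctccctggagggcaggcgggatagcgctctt
The matches lay side by side at -172 to -168 and -167 to -163, and the peak reached from -109 to 268, so they lay outside it. No other element searched was found.

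Peaks within the Ednra gene but assigned by the table to the long non-coding RNA gene 4933431K23Rik, which overlaps it, were also read. The peak 12529 bp inside Ednra (chr8:78438374-78438698) had 25.5 in SCR and 12.4 in siPiezo2, from 59 and 20 reads, with a log2 ratio of -0.98 (-1.69 to -0.30, and -2.05 to 0.08 with the wider interval). Its interval from counting error overlapped that of the Ednra promoter. The peak 39919 bp inside had 20.0 and 14.1 (-0.48, -1.19 to 0.21). An upstream peak at -13097 bp had 15.6 and 23.1 (0.54, -0.11 to 1.18). The intervals of the latter 2 peaks included 0.

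Ednrb encodes the ETB receptor, which in endothelium promotes nitric oxide release and which also clears endothelin-1. It had 3 peaks (ENSMUSG00000022122, chromosome 14, minus strand), none of them within 1 kb of a TSS. The peak nearest to a TSS, 3030 bp inside it in intron 2 of 7 (chr14:104077924-104078279), had 24.6 in SCR and 18.6 in siPiezo2 (log2 ratio -0.39, -1.02 to 0.23). The other peak in intron 2 (chr14:104069980-104070204) had 14.5 and 9.67 (-0.54, -1.35 to 0.26), and the peak in the 3′ UTR (chr14:104053071-104053329) had 15.9 and 14.5 (-0.12, -0.85 to 0.59). All 3 were lower in siPiezo2 without passing 1.5-fold, except that the 3′ UTR peak was at 0.01 with median-of-ratios scaling and at 0.15 with recovered reads at the same total. Their summed density was 55.1 and 42.8, from 126 and 70 reads, with a log2 ratio of -0.36 (-0.77 to 0.05).

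The largest decreases near a receptor gene lay beyond the end of Ednrb, in intergenic peaks that carried no symbol and whose nearest TSS was that of Ednrb. The peak 65576 bp from it (chr14:104015413-104015698) had 33.5 in SCR and 13.1 in siPiezo2, from 79 and 21 reads, with a log2 ratio of -1.28 (-1.96 to -0.63). Its neighbour at 64829 bp (chr14:104016111-104016494) had 28.4 and 11.8 (-1.20, -1.91 to -0.51). Their windows overlap, so the pair counts in part the same reads. The wider intervals also lay below 0 (-2.29 to -0.27 and -2.27 to -0.12). Of all peaks, 0.714% and 1.11% had a lower ratio, and of those called in SCR only, as both were, 1.06% and 1.62%. The other 3 intergenic peaks nearest to Ednrb ranged from -0.36 to 0.34. The rule for neighbouring peaks was set after the table had been seen, and no link to Ednrb was measured.

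**Figure D3:**
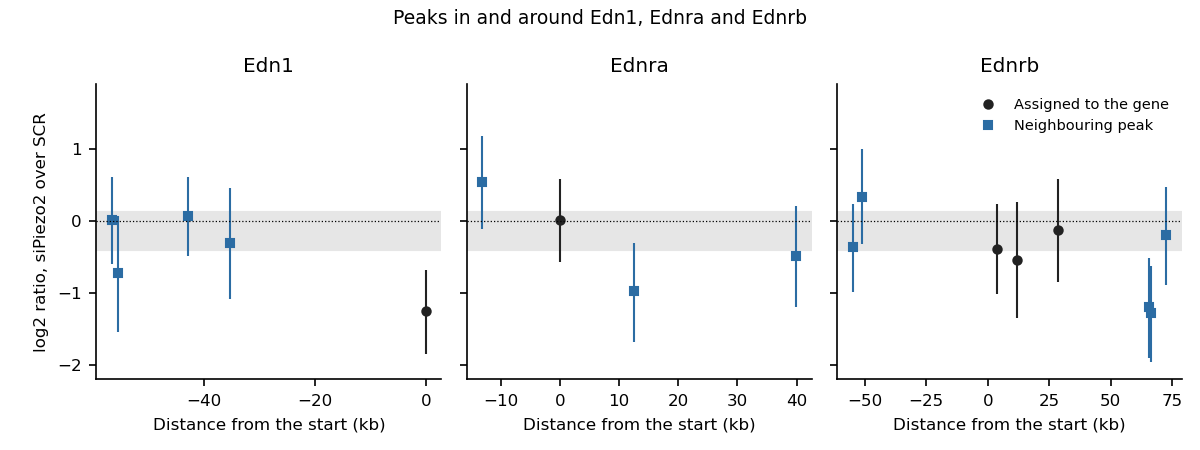
Log2 ratio of siPiezo2 over SCR with the 95% interval from counting error, by distance from the first start in kb (positive downstream of the start), for peaks assigned to Edn1, Ednra and Ednrb (circles) and neighbouring peaks (squares). Grey bands span the quartiles of all peaks, -0.41 to 0.12. The Edn1 promoter and the pair downstream of Ednrb lie below -1, and the Ednra promoter lies at 0.01.

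Agt encodes angiotensinogen, the only precursor of the angiotensin peptides. Its peak (ENSMUSG00000031980, chr8:125295845-125296122, intron 1 of 4, centre 462 bp inside the start of the minus-strand gene) had 28.3 in SCR and 18.0 in siPiezo2, from 67 and 29 reads. The log2 ratio was -0.62 (-1.24 to -0.01, and -1.53 to 0.30 with the wider interval). The peak was lower past 1.5-fold, but by a narrow margin. With median-of-ratios scaling, with each library at the same total density, and with recovered reads at the same total, it no longer passed the threshold, with log2 ratios of -0.49, -0.54 and -0.44. Of peaks within 1 kb of a TSS, 5.88% had a lower ratio. The peak was called in SCR only, and among such peaks near a TSS 11.3% were lower than it.

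Ace encodes angiotensin converting enzyme, which makes angiotensin II. Its peak (ENSMUSG00000020681, chr11:105860456-105860712) was the only member peak called in the siPiezo2 library alone. Density was 17.9 in SCR and 28.3 in siPiezo2, from 42 and 46 reads, although SCR had more reads over all peaks. The log2 ratio was 0.63 (0.04 to 1.23, and -0.25 to 1.51 with the wider interval), and between 0.66 and 0.84 with the other pseudocount and scalings. By its ratio it stood above 97.4% of all peaks, while peaks called in siPiezo2 only had a median of 0.58. The table placed it at -1565 bp, upstream of a transcript that starts 3378 bp downstream of the first Ace start in GENCODE M21. By these distances it lies inside the gene and not at the first promoter, which had no peak. Within that class 54.6% of peaks had a lower ratio, so Ace lay near its middle. The peaks of Agt and Edn1 were called in SCR only, and the calling class nearly fixes the sign for Ace, since 5.86% of siPiezo2-only peaks were below 0.

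Agtr1a encodes the type 1 angiotensin receptor. The peak at its start (ENSMUSG00000049115, chr13:30520250-30520607, 5′ UTR) had 17.9 in SCR and 15.2 in siPiezo2, from 41 and 25 reads (log2 ratio -0.22, -0.92 to 0.46). The peak in intron 2 of 3 (chr13:30542823-30543090) had 16.8 and 13.4, from 38 and 22 reads (-0.31, -1.04 to 0.41). Both were weak and lower in siPiezo2 by less than counting error, and the peak at the start was at 0.03 with recovered reads at the same total. Their sum gave a log2 ratio of -0.27 (-0.79 to 0.23). Within the gene, a peak assigned to Gm48161 (chr13:30552714-30553101) had 26.3 and 17.4 (-0.57, -1.21 to 0.05), and the intergenic peak at -63968 bp had 16.6 and 17.6 (0.08).

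Agtr2 encodes the type 2 angiotensin receptor, which is best known from fetal tissue and often opposes the type 1 receptor. No peak in the table carried its symbol. The only peak whose nearest TSS was that of Agtr2 lay 83111 bp from it on chromosome X, with 17.3 in SCR and 20.1 in siPiezo2 (log2 ratio 0.20, -0.45 to 0.85). No density is listed for a gene whose symbol is on no peak, and peaks without a symbol or with that of an overlapping gene are not counted by the rule.

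**Figure D4:**
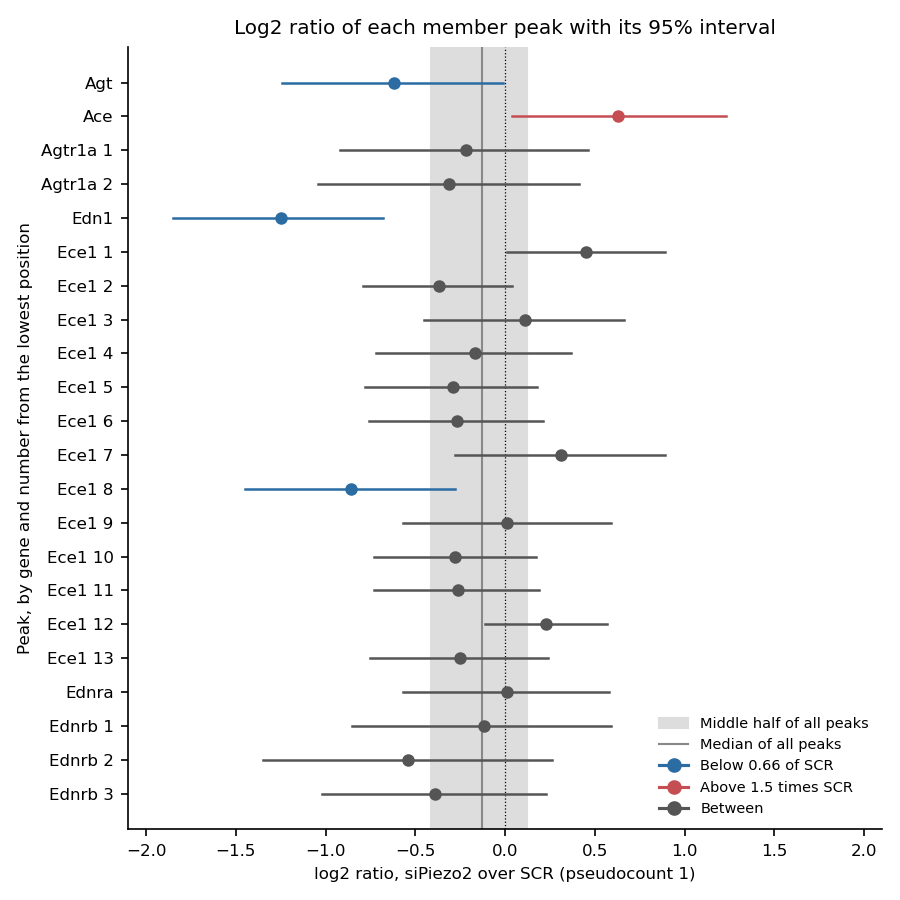
Log2 ratio of siPiezo2 over SCR for each of the 22 peaks with its 95% exact binomial interval, which covers counting error only, coloured by the 1.5-fold thresholds. The grey band and line are the quartiles and the median (-0.13) of all peaks. The Edn1 interval (-1.85 to -0.68) is the lowest, and Ace (0.63) has the highest ratio.

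In the table's functional annotation, all 7 genes with a peak shared the process regulation of blood pressure, and 6 of them, all but Ece1, shared vasoconstriction. The renin secretion pathway listed 5 (Ace, Agt, Agtr1a, Edn1 and Ednra) and vascular smooth muscle contraction 4. The first 3 of these terms hold Ace, which was higher, together with Agt and Edn1, which were lower, while the last lacks Ace.

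Other genes of the pathways were read from lists of 60 genes, of which 47 had a peak. Of these 47, 2 were lower and none higher past 1.5-fold, where 6.21% and 1.54% of all genes were, and the median log2 ratio was -0.10, beside -0.09 over all genes. In the angiotensin list 17 of 21 genes had a peak, 12 (70.6%) were below 0, against 62.6% of all genes, and the median was -0.09. Ctsg, a protease of neutrophils and mast cells that can form angiotensin II, was the only gene of this list past the threshold, with 19.3 in SCR and 12.2 in siPiezo2 (log2 ratio -0.62, -1.36 to 0.10). The only Ctsg peak was annotated as downstream of the gene, 4797 bp from the nearest TSS. Its interval reached above 0, and with the other 3 scalings it no longer passed 1.5-fold.

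Renin cuts angiotensinogen, and the peak of Ren1 had 20.5 in SCR and 21.5 in siPiezo2 (log2 ratio 0.07). Agtr1b, the other mouse type 1 receptor, had 14.5 and 10.3 (-0.46, -1.26 to 0.33). Neither differed beyond counting error. The renin receptor gene Atp6ap2 had 30.1 and 28.3 (-0.09), and Agtrap, whose product promotes internalization of the type 1 receptor, had 25.5 in both libraries. No peak was assigned to Mas1, Mrgprd, Cma1 or Klk1, nor to any of the 5 other endothelin genes (Edn2, Edn3, Ece2, Ecel1 and Kel). Edn1 and Ece1 were thus the only ligand and converting enzyme of the endothelin arm with a peak.

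Of 34 genes that act downstream of the receptors, 30 had a peak, 19 (63.3%) were below 0, near the share over all genes, and the median was -0.12. The interval lay below 0 for 10 and above 0 for 2, and over all genes it did so for 16.5% and 4.86%. These genes had a median of 4 peaks, against 2 over all genes. More reads narrow the interval, and so do overlapping windows, which count in part the same reads. The part of each in these counts was not tested. Rgs5, a GTPase activator that dampens signals of both receptor families, was the only gene of this list past the threshold. Its 5 peaks summed to 127 in SCR and 56.0 in siPiezo2, with a log2 ratio of -1.16 (-1.50 to -0.84). All 5 were lower and 4 passed 1.5-fold. Rgs5 is also a pericyte marker. Mural markers, 5 of 7 with a peak, summed to 479 and 397 with Rgs5 and to 352 and 341 without it, and the part of mural cells in the result was not tested.

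Among the other downstream genes, Gnaq, the G protein subunit through which the type 1 and ETA receptors activate phospholipase C, had 430 in SCR and 337 in siPiezo2 over 16 peaks (log2 ratio -0.35, -0.50 to -0.20). The calcium channel gene Itpr3 had 128 and 90.5 (-0.50, -0.78 to -0.21). Rgs2, a GTPase activator for the subunit encoded by Gnaq, had 29.6 and 43.2 (0.53, 0.06 to 1.01). By single peaks, 4 of the 16 of Gnaq were lower past 1.5-fold, against 13.5% of all peaks, and none of Itpr3 was. The Gnaq peaks ranged from -1.40 (-1.99 to -0.83) to 0.22. Gnaq, Itpr3 and Rgs2 were named after their values were seen, and by summed density none passed 1.5-fold in the authors' densities. Rgs2 and the phospholipase gene Plcb3 (18.7 and 27.1, log2 ratio 0.51) passed it with each of the other 3 scalings.

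**Figure D5:**
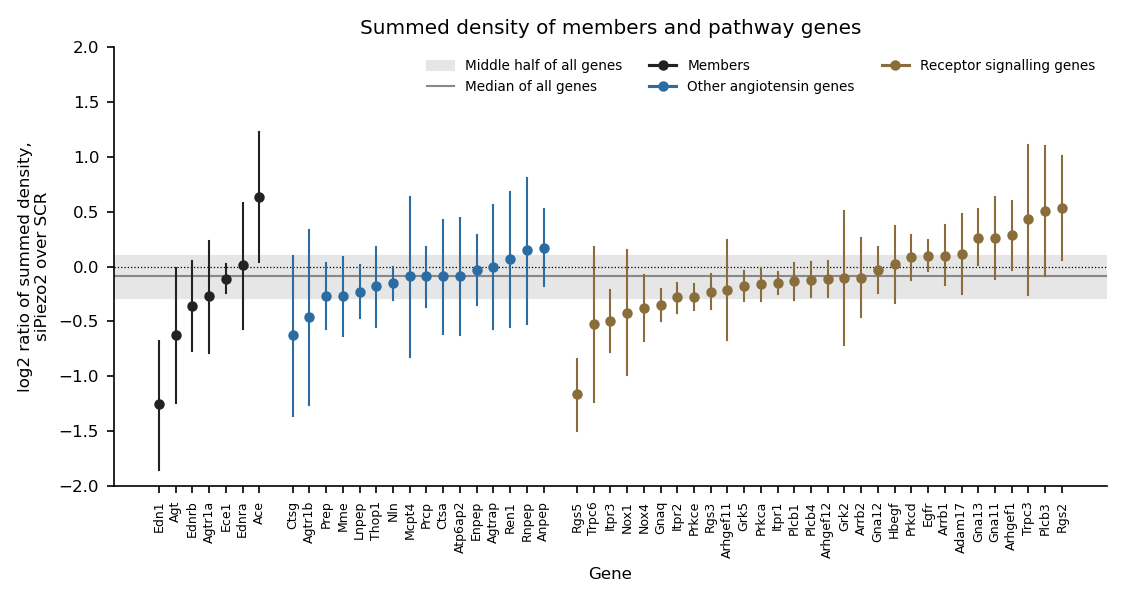
Log2 ratio of summed density, siPiezo2 over SCR, with the 95% interval from counting error, for the 7 members with a peak, 16 other angiotensin genes and 30 receptor signalling genes. The grey band and line are the quartiles (-0.29 and 0.10) and the median (-0.09) of all genes. Edn1 (-1.25) and Rgs5 (-1.16) are the lowest.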

How the data were processed

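ATAC-seq libraries of SCR and siPiezo2 cells, 1 each, were compared. The authors deposited 1 table with a normalized signal (read density) per peak and library, made per the methods with bwa (0.7.12 in the submitters' processing notes), Picard and MACS2, and normalized by removing a linear trend of the log2 ratio with signal strength. The labels name mm10, but the coordinates are those of GRCm39. The table's fold-change, M, A and p-value columns, the authors' own comparisons, were not used. Undoing the trend on the densities (intercept -0.2482, slope 0.1738) gave whole reads within 0.05 for 100% of 63316 peaks, after taking off 1 read added per window. Median reads per window were 58 (SCR) and 36 (siPiezo2). No molecular identifiers are named, so intervals cover counting error only. Where the windows of a gene's peaks overlap, the interval of their sum is too narrow.

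A pseudocount of 1, thresholds of 0.66 and 1.5, and no filter on low values were used. With 1 library per condition no test was run. Members, lists and peaks to be named (nearest to the TSS, strongest, past 1.5-fold) were chosen with earlier results of these data known. Of the pathway genes with a peak, 1 is counted but not reported by name here. Promoters came from RefSeq (GRCm38.p6), matched by symbol for 7 of 8 members and placed through transcript starts. Of 13 transcripts, 12 had the same length in GENCODE M21. The read recovery and the intervals of single peaks were tested on simulated independent windows with counting error only. Intervals of sums over peaks were not tested in this way. Peaks without a symbol were 30.7% of the table. Versions were scipy 1.17.1, pandas 2.3.3, numpy 2.4.6, matplotlib 3.10.9 and Python 3.11.15.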

Additional observations from a re-analysis of the deposited data

How the results depend on the processing

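No paired analysis was possible because each condition had 1 library. In all, 100 values were recomputed under 10 alternatives, 2 of them chosen after seeing the data (recovered reads at the same total, and neighbouring peaks added). The limit was the counting interval for a gene's ratio and 1.5 times for a count. For the median of the member peaks it was their quartiles. Of the 100 values, 82 stayed within these limits, 18 moved further and 0 changed the sign of a called value. The 3 lower member peaks became 1 at 2-fold and 7 with neighbouring peaks, which added 4 lower of 19 to the 3 of 22, beside 13.5% of all peaks. The 1 higher peak became 2 with median-of-ratios scaling, 0 at 2-fold and 0 within 1 kb of a TSS. Edn1 had -0.47 with neighbouring peaks. Ece1 had 0.03 with median-of-ratios scaling and 0.23 by its strongest peak. The 2 lower pathway genes became 1 with median-of-ratios scaling, at the same total, at 2-fold, in the upper 75% of peaks by density and with recovered reads, and 0 within 1 kb of a TSS. The 0 higher pathway genes became 2 with median-of-ratios scaling, 2 at the same total, 1 by the strongest peak and 3 with recovered reads. Scaling moved the median of all genes from -0.09 to 0.04 (median-of-ratios), -0.01 (same total) and 0.03 (recovered reads). The lower calls of Agt and Ctsg were lost with each of these 3 scalings, while those of Edn1, Ece1 (internal promoter) and Rgs5 and the higher call of Ace were kept. The cause was not tested. Member peaks held 32 to 175 reads in SCR and 16 to 116 in siPiezo2, so small differences were not detectable.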
